A study of Mus musculus with 16 samples.

Results

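The microRNAs miR-101a and miR-101b have almost the same mature sequence and are made from separate genes on chromosomes 4 and 19. On miRNA arrays of cultured mouse mast cells, the miR-101b signal was lower relative to miR-101a in bone marrow-derived mast cells than in the progenitors. With the main scaling between arrays miR-101a was higher and miR-101b lower, while 3 of the other settings turned the direction of miR-101b. Both were chosen by their array gene names, and because of this opposite movement. They are 2 of the 577 mouse miRNAs on the array, each read by 2 probes with 10 spots per probe on every array, named mmu-miR-101a and mmu-miR-101b there, and both are among the 217 miRNAs fitted, those with 3 or more arrays of a group well above background.

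All 4 groups came from Balb/c bone marrow cultured in 5 ng/ml IL-3 and 20 ng/ml SCF, the cytokines that drive mast cell growth, and each has 4 arrays labelled from 100 ng of total RNA. The progenitors were cells positive for c-kit, the SCF receptor, taken magnetically from the cultures on day 6. The cultured mast cells, BMMC, were grown for 4 weeks and are described by the submitters as immature. The MMC group is BMMC given IL-9 and TGF-beta for 5 more days, which turns them toward the mucosal type, and the IgE_BMMC group is BMMC loaded with an IgE against DNP and then given DNP antigen for 2 hours to crosslink it. No time-matched culture without IL-9 and TGF-beta, and no IgE-loaded culture without antigen, is among the samples analysed here. The labels number the 4 samples of a group but do not say whether they came from separate animals or cultures, so the p-values reflect how far these samples scattered, possibly for technical reasons. Being bulk RNA, the samples cannot tell fewer cells that hold a miRNA from less of it per cell.

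A mature miRNA guides Argonaute proteins to messenger RNAs, mainly by pairing through its bases 2 to 8, the seed, and the targeted messenger is repressed. The best known target of miR-101, from human tumour cells, is EZH2, the enzyme of Polycomb repressive complex 2 that methylates histone H3 and silences genes. Each miR-101 hairpin yields a guide from its 3′ arm, named simply miR-101a or miR-101b on this array, and a passenger strand from its 5′ arm, marked with a star.

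The mature sequences are given first with the seed in capitals, since they show how little separates the pair and which relatives share the seed letters. Sequences are those of RefSeq on GRCm38.p6, which held both members, and are written 5′ to 3′.
miR-101a-3p: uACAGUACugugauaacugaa
miR-101b-3p: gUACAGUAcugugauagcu
miR-144-3p: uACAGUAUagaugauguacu
miR-101c: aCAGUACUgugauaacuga
MiR-101a-3p lies at chr4:101346957-101346977 on the minus strand and has 21 bases. MiR-101b-3p lies at chr19:29135338-29135356 on the plus strand and has 19 bases. RefSeq starts miR-101b-3p 1 base further 5′, so the 7 letters that form the seed of miR-101a begin at base 3 in miR-101b, and the annotated seeds are the same stretch shifted by 1 base. MiR-101c, whose 19 bases are all contained in bases 2 to 20 of miR-101a-3p, was not a probe target on this array, and its part in the miR-101a signal was not tested. MiR-144-3p shares bases 2 to 7 with miR-101a-3p and departs at the last seed base, C8U counted from the 5′ end.

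Laid on each other, the pair share 18 positions, of which 17 hold the same base, and the capital marks the single difference.
miR-101a-3p: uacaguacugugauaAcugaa
miR-101b-3p: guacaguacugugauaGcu
The substitution is A16G, counted from the 5′ end of miR-101a-3p, and is base 17 of miR-101b-3p. MiR-101a-3p also carries 3 bases at its 3′ end that the annotated miR-101b-3p lacks. The hairpins differ more than the mature forms, which are in capitals here.
Mir101a hairpin: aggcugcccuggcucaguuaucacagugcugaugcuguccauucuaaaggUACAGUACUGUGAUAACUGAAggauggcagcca
Mir101b hairpin: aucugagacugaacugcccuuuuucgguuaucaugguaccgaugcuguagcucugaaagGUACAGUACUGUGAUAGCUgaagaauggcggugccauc
The Mir101a hairpin, at chr4:101346945-101347027 on the minus strand, falls inside the span of the long non-coding RNA gene E130102H24Rik. The Mir101b hairpin, at chr19:29135279-29135375 on the plus strand, falls inside the span of Rcl1, which codes for an RNA cyclase-like protein of ribosomal RNA processing. Whether either hairpin is exonic or intronic there was not determined, because only gene spans were used here.

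Per the file headers, the array probes are placed on the older mm9 build, and the positions of the 2 builds are not mixed here. The miR-101a probes A_54_P2268 and A_54_P4365 cover 20 and 21 bases from chr4:101019562, and the miR-101b probes A_54_P2593 and A_54_P2594 cover 17 and 18 bases that end at chr19:29209849. The probes' own sequences are not used here. How far a probe for one member binds the other, which matches it at all but 1 aligned base, was not tested, and the level of one probe is never set against that of another. Values below are from the brighter probe of each miRNA, A_54_P4365 and A_54_P2594, unless the other is named.

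The extraction software's signals were not saturated on any array. Per array, 140 to 225 miRNAs were well above background, with group means of 167 (progenitors), 211.8 (BMMC), 179.5 (MMC) and 153.8 (IgE_BMMC). Each group had 2 arrays on each of the 2 slides. The replicate 3 array of IgE_BMMC had a blank patch: 225 of its 1466 bright miRNA spots (15.3%) gave less than 0.2 of the usual signal of their probe, against 0 on each of the other 15 arrays. The software marked only 70 of these spots as outliers, so the other 155 entered the averages. Of the 10 spots of the miR-101b probe A_54_P2594, 5 lay in the patch, read between -3.51 and 4.43 intensity units against 83.7 to 90.1 for the 5 outside it, and none was marked. The affected spots of the other miR-101 probes, 2 of A_54_P2593, 2 of A_54_P4365 and 1 of A_54_P2268, were all marked and left out. The members' results that rest on this array are given with the patch's spots in and left out, a step chosen after the data were seen.

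**Figure D1:**
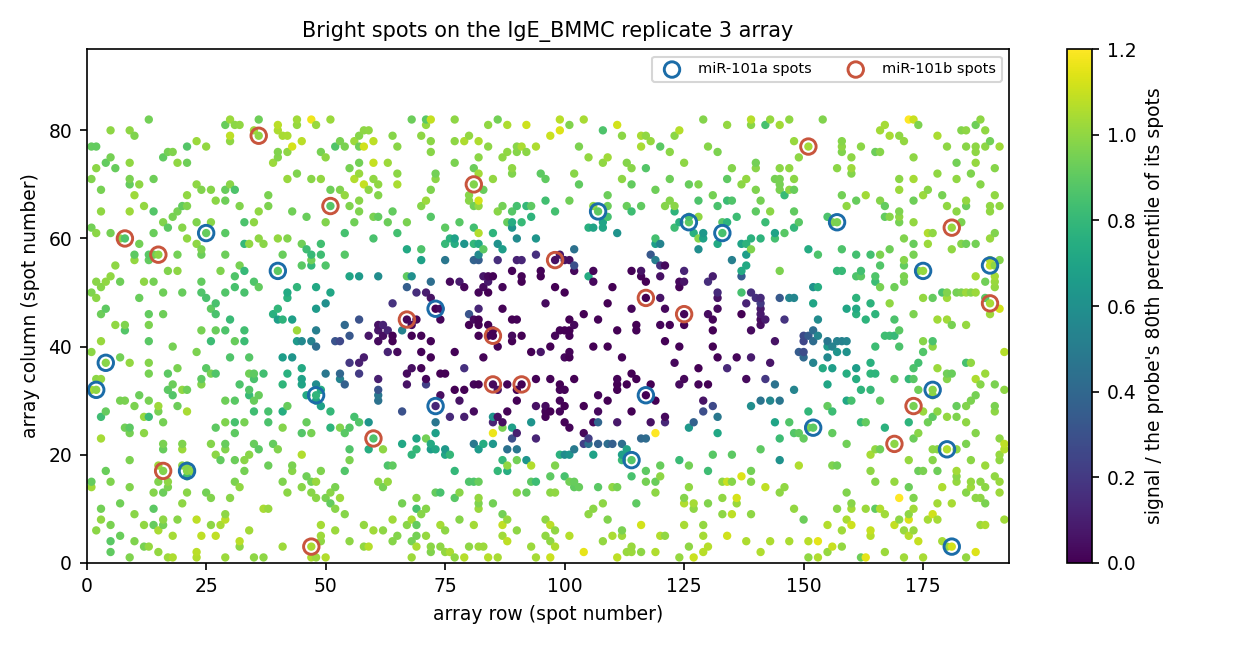
Each point is a bright miRNA spot on the IgE_BMMC replicate 3 array, placed by its row and column and coloured by its signal as a share of the 80th percentile of its probe's spots on that array. Dark points, with little signal, fill a patch from row 55 to 146 and column 23 to 57, and rings mark the spots of the miR-101a and miR-101b probes.

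Before scaling, both members were brighter on the BMMC arrays than on the progenitor arrays. The miR-101a probe read 109.9, 95.7, 80.6 and 100.95 intensity units in progenitors 1 to 4, and 856, 651, 628 and 466 in BMMC. It read 378, 285, 350 and 276 in MMC, and 166, 174, 184 and 164 in IgE_BMMC. The lowest BMMC array was thus above every other array, and the progenitor arrays were the dimmest. The miR-101b probe read 165, 136, 127 and 152 units in progenitors, and 319, 345, 346 and 298 in BMMC. It read 182, 143, 148 and 163 in MMC, and 90.3, 93.7, 43.6 and 93.7 in IgE_BMMC, where replicate 3 read 86.8 with the blank patch left out. For miR-101b the IgE_BMMC arrays were the dimmest, and the MMC and progenitor arrays overlapped.

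Whole arrays differed in brightness too, so a scale factor was taken for each from the 205 probes well above background everywhere, as their 75th percentile on that array. On the log2 scale the BMMC arrays were 2.01 brighter than the progenitor arrays by this factor and the MMC arrays 0.996 brighter, whereas the IgE_BMMC arrays were 0.03 dimmer. After scaling, miR-101a read 7.36, 7.47, 7.26 and 7.23 in progenitors and 8.39, 7.92, 8.01 and 7.87 in BMMC (log2 intensity). In MMC it read 8.16, 8.02, 8.25 and 7.84, and in IgE_BMMC 8.02, 8.13, 8.60 and 8.04, where replicate 3 read 8.52 with the patch left out. All 12 mast cell arrays were above all 4 progenitor arrays, and the 3 mast cell groups overlapped.

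Scaled miR-101b read 7.95, 7.98, 7.92 and 7.82 in progenitors and 6.97, 7.001, 7.15 and 7.23 in BMMC (log2 intensity). It read 7.11, 7.03, 6.999 and 7.08 in MMC, and 7.14, 7.24, 6.52 and 7.23 in IgE_BMMC, where replicate 3 rose to 7.44 with the patch left out. Here the 4 progenitor arrays were above all 12 mast cell arrays, with or without the patch, and the BMMC and MMC arrays overlapped. By mean level, miR-101a ran from IgE_BMMC (8.20 ± 0.27) through MMC (8.07 ± 0.18) and BMMC (8.05 ± 0.24) down to progenitors (7.33 ± 0.11; SD, n = 4 each). MiR-101b ran from progenitors (7.91 ± 0.07) down to BMMC (7.09 ± 0.12), MMC (7.05 ± 0.05) and IgE_BMMC (7.03 ± 0.35). With the patch left out, the IgE_BMMC mean of miR-101b was 7.27 ± 0.12, second in the order, and that of miR-101a was 8.18 ± 0.23.

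**Figure D2:**
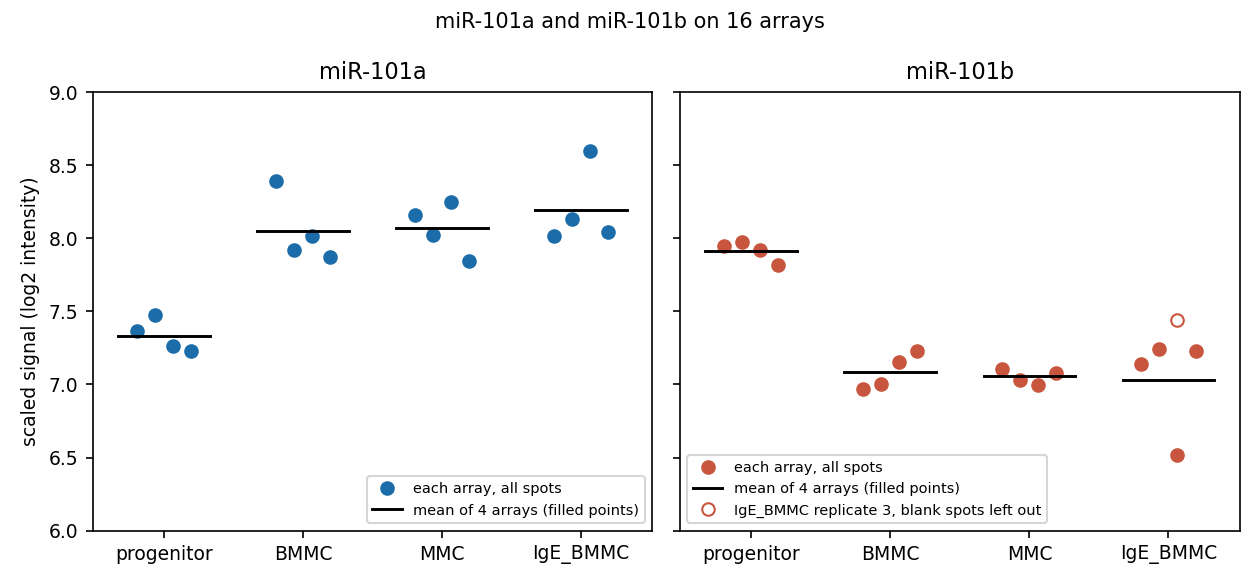
Each point is one array's scaled signal (log2 intensity) for miR-101a, left, and miR-101b, right, in the 4 groups of 4 arrays, and the bars are group means. Every mast cell array sits above the progenitors for miR-101a and below them for miR-101b, and the open point is IgE_BMMC replicate 3 without its blank spots.

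The members were picked on BMMC against progenitors, so that difference is described and not tested. MiR-101a was 1.64-fold higher in BMMC (0.72 on the log2 scale, 0.54 within slide 1 and 0.89 within slide 2), and its other probe gave 0.72. MiR-101b was lower, by -0.83 (1.78-fold; -0.78 within slide 1 and -0.87 within slide 2), and its other probe gave -0.97. The groups did not overlap for either member. In this comparison 66.4% of the 217 miRNAs passed an adjusted p of 0.05 in limma, 45.2% with BMMC lower, and 56.7% did not overlap, 17.5% with BMMC higher and 39.2% with BMMC lower, so separate groups were common.

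The fall of miR-101b depended on how arrays were made comparable, whereas miR-101a was higher in BMMC under each scaling tried. Without scaling, miR-101b was 2.26-fold higher in BMMC (1.18 on the log2 scale) and miR-101a 6.60-fold higher (2.72). Scaling by the 75th percentile of all probes gave 0.72 for miR-101b, the authors' value table gave 0.10, quantile normalization gave -0.23, and normexp background correction gave -0.96. For miR-101a the same settings gave 2.26, 1.70, 1.29 and 0.27. The median over all fitted miRNAs moved with the setting as well, from -0.30 in the main setting to 1.27 without scaling and -1.34 after normexp. MiR-101b was below that median with the main scaling and above it after normexp.

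The difference between the members inside an array does not carry the array's scale factor. Its own sign depends on the probes and is not read, and only its shift between groups is. MiR-101b minus miR-101a was 0.58, 0.50, 0.66 and 0.59 in progenitors and -1.42, -0.92, -0.86 and -0.64 in BMMC (log2). It was -1.05, -0.995, -1.25 and -0.76 in MMC, and -0.88, -0.89, -2.08 and -0.81 in IgE_BMMC, with -1.08 in replicate 3 when the patch was left out. All 4 progenitor arrays stood above all 12 mast cell arrays. From progenitors to BMMC the miR-101b signal fell 2.92-fold relative to miR-101a (-1.54 on the log2 scale, -1.33 within slide 1 and -1.76 within slide 2), again a description. The 4 ways of pairing a miR-101b probe with a miR-101a probe gave -1.70 to -1.54. Settings that change only the scale factor of an array cannot alter this shift. With the quantile normalization, background, probe and value source settings included, it ran from -1.70 to -1.23 and did not change direction. That direction is the one the pair was picked for.

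**Figure D3:**
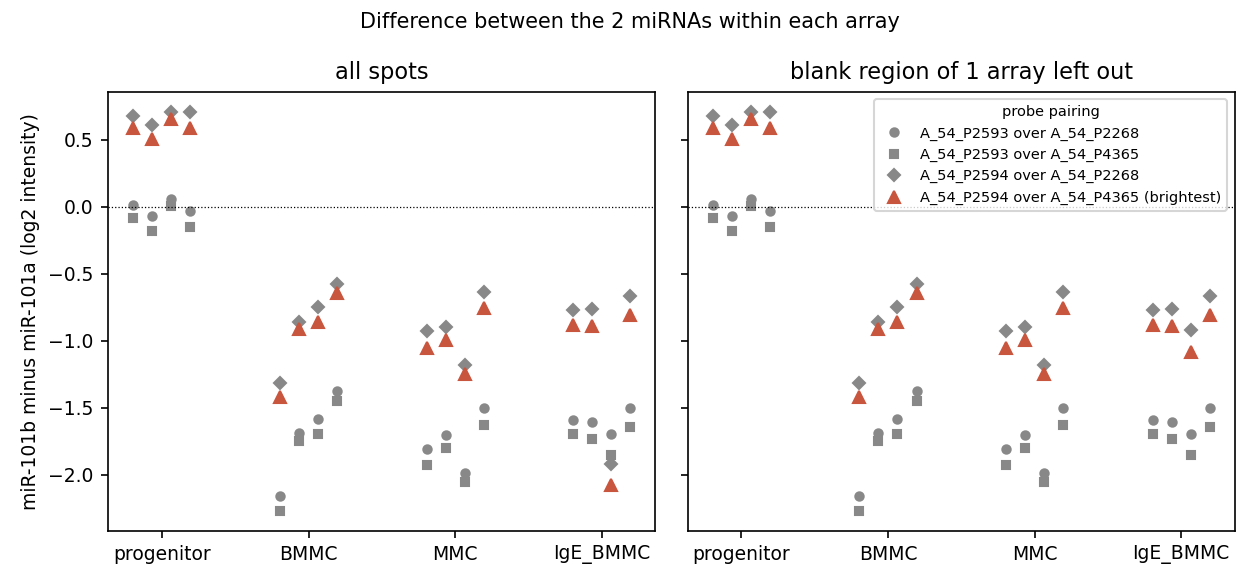
Each symbol is miR-101b minus miR-101a on one array (log2 intensity), with 1 symbol shape for each of the 4 probe pairings, all spots on the left and the blank patch left out on the right. In each pairing every progenitor array lies above every mast cell array, and the low IgE_BMMC points on the left belong to replicate 3.

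**Figure D4:**
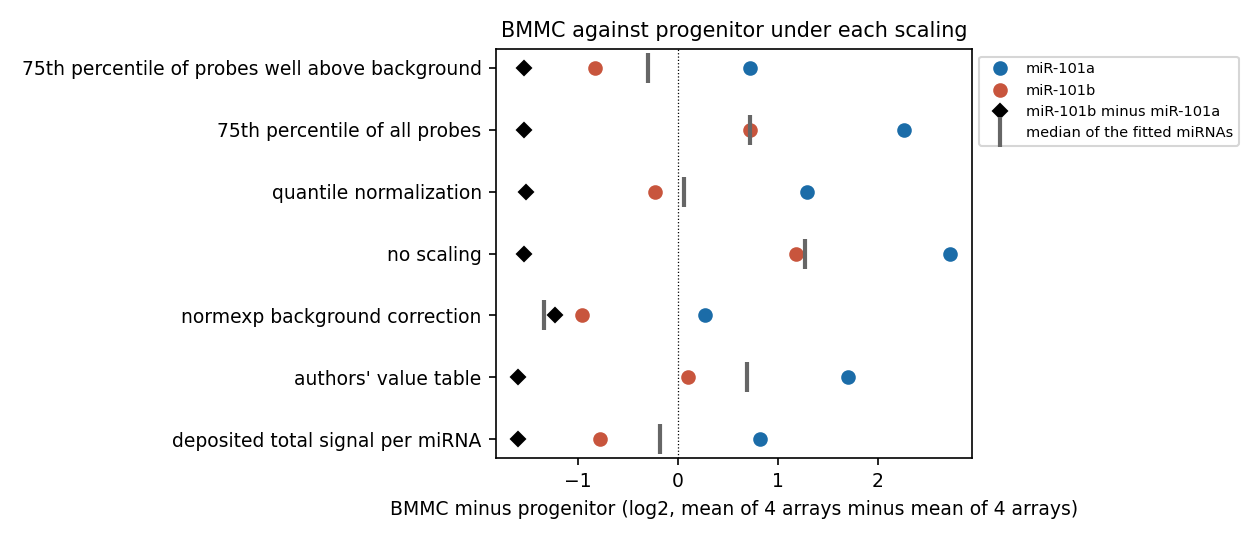
BMMC minus progenitor on the log2 scale under each scaling, background correction or source of values, for miR-101a, miR-101b, their difference and the median of the fitted miRNAs. The miR-101b points run from -0.96 to 1.18 and cross 0, the miR-101a points run from 0.27 to 2.72, and the difference runs from -1.60 to -1.23.

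By the main scale factor, the IgE_BMMC arrays allow the same description at nearly equal brightness, since their factors averaged 1.02-fold below those of the progenitors. There, without any scaling, miR-101a was 1.79-fold higher than in progenitors (0.84 on the log2 scale) and miR-101b was lower by -0.91. With the patch left out, unscaled miR-101b was lower by -0.66, a 1.58-fold difference, and its other probe gave -0.79. So the pair stood on opposite sides of the progenitor level in raw signal as well, but not under every scaling. With the 75th percentile of all probes, miR-101b differed by 0.72 from progenitors to BMMC and by -0.28 from BMMC to IgE_BMMC (log2). In the authors' value table these differences were 0.10 and 0.070. In both settings miR-101b in IgE_BMMC was thus above the progenitor level. In MMC against progenitors, unscaled miR-101a was 3.32-fold higher and miR-101b differed by 0.14, whereas scaling gave 0.74 and -0.86. These comparisons use the progenitor arrays on which the members were picked and were not tested.

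Among the mast cell groups the members were then compared by limma over all tested miRNAs with Benjamini-Hochberg adjustment. MMC was set against BMMC to ask what mucosal differentiation does. MiR-101a differed by 0.02 ± 0.14 (log2 difference ± SE, 4 arrays per group; 95% interval -0.29 to 0.33; adjusted p = 1). MiR-101b differed by -0.03 ± 0.13 (95% interval -0.31 to 0.25; adjusted p = 1). Neither passed, in a comparison where 20.8% of 207 miRNAs did. The groups overlapped for both members, whereas 34.8% of miRNAs had no overlap.

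IgE_BMMC was set against BMMC to ask what 2 hours of IgE crosslinking does. MiR-101a differed by 0.15 ± 0.14 (log2 difference ± SE; 95% interval -0.16 to 0.46; adjusted p = 0.590 in limma), and by 0.13 (adjusted p = 0.627) with the patch left out. MiR-101b differed by -0.05 ± 0.13 (95% interval -0.33 to 0.22; adjusted p = 0.974 in limma), and by 0.17 ± 0.07 (adjusted p = 0.0728) with the patch left out. Neither member passed either way, against 25.6% of 207 miRNAs in the main fit and 30.4% without the patch, and both members' groups overlapped with all spots, beside 29% of miRNAs that had no overlap. Both comparisons share the BMMC arrays with the one used to pick the members.

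MMC against IgE_BMMC uses no array on which the members were picked. MiR-101a differed by -0.13 ± 0.14 (log2 difference ± SE; 95% interval -0.44 to 0.18; adjusted p = 0.552 in limma), and by -0.11 (adjusted p = 0.540) without the patch. MiR-101b differed by 0.02 ± 0.13 with all spots (95% interval -0.26 to 0.30; adjusted p = 0.898 in limma). Neither passed, beside 32.2% of 174 miRNAs.

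Leaving the patch out turned the direction for miR-101b and brought it past the threshold, where 35.6% of miRNAs passed and 17.2% passed with MMC lower. It was then lower in MMC by -0.21 ± 0.07 (adjusted p = 0.0310 in limma), with MMC at 7.004 to 7.11 and IgE_BMMC at 7.14 to 7.44 (log2 intensity). These groups did not overlap, as was so for 44.3% of miRNAs with all spots. The other miR-101b probe, whose blank spots the software had already removed, read 6.19 to 6.23 in MMC and 6.32 to 6.74 in IgE_BMMC. The 6.74 was replicate 3, and the other IgE_BMMC arrays read 6.32 to 6.40. Before scaling replicate 3 read 50.9 units against 51.2 to 52.6 on the others, and its scale factor, 0.476, was the group's lowest. The difference of this probe was -0.25 ± 0.09 (adjusted p = 0.0398 over 368 probes in limma), and -0.23 (adjusted p = 0.0330) without the patch. With the whole replicate 3 array left out, however, miR-101b differed by -0.15 (adjusted p = 0.0818 in limma). For the brighter probe the call thus rests on that array, and without scaling the direction was opposite (1.05).

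The difference between the members within an array showed no detectable shift among the mast cell groups. It averaged -0.96 ± 0.33 in BMMC, -1.01 ± 0.20 in MMC and -1.16 ± 0.61 in IgE_BMMC, or -0.92 ± 0.12 in IgE_BMMC without the patch (log2, SD, n = 4). MMC differed from BMMC by -0.05, IgE_BMMC from BMMC by -0.20 and MMC from IgE_BMMC by 0.15, with p = 0.8, 0.657 and 0.886 in exact two-sided permutation tests and 0.886 for each after Benjamini-Hochberg adjustment over the 3. Without the patch the shifts were -0.05, 0.05 and -0.10, with an adjusted p of 0.8 for each in the exact tests. The smallest p that 70 arrangements of 4 against 4 arrays allow is 0.0286. The groups overlapped in each of the 3 comparisons.

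Other sister miRNAs, which share a number and differ in their letter, gave a background for such a split. From progenitors to BMMC, the 59 other pairs, made from 44 measured miRNAs, had a median shift of 0.38 between sisters (log2, without sign), and 21 had opposite signs. Many of these pairs share a member, most often within the let-7 family, so they are not separate observations. The miR-101 pair, at 1.54, was the seventh largest of all 60, behind miR-146a and miR-146b (4.62), miR-106a and miR-106b (2.22), miR-130a and miR-130b (1.80) and 3 pairs of the miR-181 family. The groups did not overlap in the within-array difference of 39 of the other pairs (66.1%), so a separation like that of miR-101 was common in this comparison. Without scaling, 6 of the 60 pairs had opposite signs, and miR-101 was not among them. Among the mast cell groups the median shift between sisters, over 55 other pairs, was 0.12 from BMMC to MMC. It was 0.14 from BMMC to IgE_BMMC and 0.11 between MMC and IgE_BMMC, or 0.11 and 0.078 without the patch. The miR-101 shifts in these comparisons were -0.05, -0.20 and 0.15, the latter pair being 0.05 and -0.10 without the patch.

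**Figure D5:**
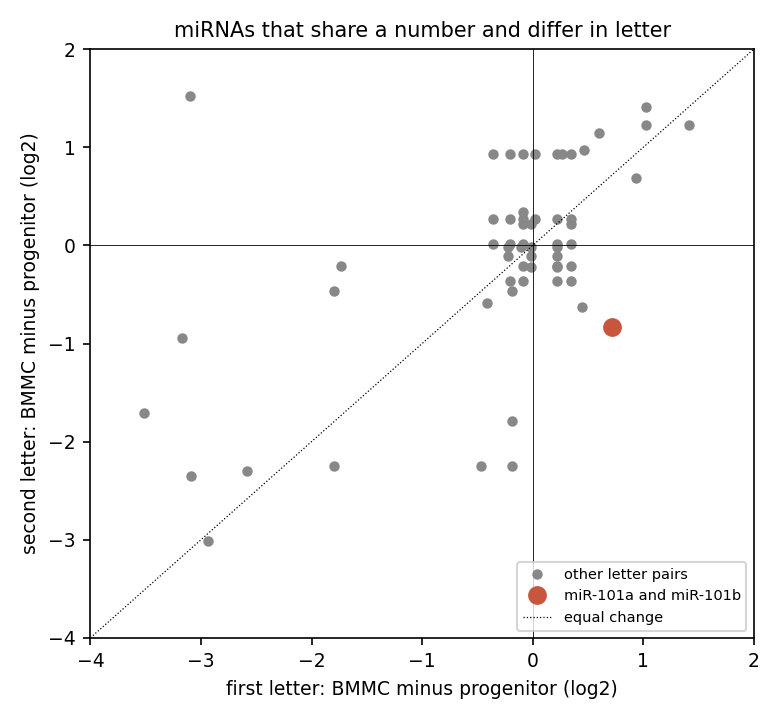
Each point is a pair of sister miRNAs, with the BMMC minus progenitor difference of the first letter on the horizontal axis and of the second letter on the vertical axis (log2). The dotted line marks equal change, and the miR-101 pair lies at 0.72 and -0.83, in the quadrant where the first letter is higher and the second lower in BMMC.

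Over the 16 arrays the scaled levels of miR-101a and miR-101b had a Pearson correlation of -0.93, and of -0.79 without the patch. Over the 12 mast cell arrays it was -0.74, and 0.25 without the patch. The negative value among mast cell arrays thus came with the blank spots of 1 array. These correlations describe arrays that share groups, slides and scale factors and carry no test. The 16 include the progenitor and BMMC arrays on which the pair was picked for opposite movement. A negative value over all 16 was thus favoured by the choice. Among the other 209 miRNAs compared, those most like miR-101a over the 16 arrays were miR-652 (r = 0.95), miR-195 (0.94), miR-26a (0.93), miR-29a (0.93) and miR-29c (0.92), and the same 5 led without the patch. Those most like miR-101b were miR-25 (0.98), miR-106b (0.97), miR-19a (0.96), miR-20a (0.95) and miR-130b (0.95). Without the patch these ranked 19, 11, 18, 15 and 43, so the order near miR-101b rested on that array. The first 5 were higher in BMMC than in progenitors by 0.59 (miR-195) to 1.23 (miR-29c) on the log2 scale. The second 5 were lower by -0.94 (miR-106b) to -3.09 (miR-19a). These directions follow largely from the choice by correlation, since each member itself separated progenitors from mast cells.

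The passenger strand miR-101a*, the other product of the Mir101a hairpin, was well above background on 0 of 16 arrays over its 4 probes. The passenger strand miR-101b* was not a probe target on this array. MiR-144, the relative with the near-identical seed, was well above background on 0 arrays.

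Other miRNAs known from human or mouse cells to repress Ezh2 were listed for comparison. Of 9 on the array, miR-26a, miR-26b, let-7a, let-7b and let-7c were well above background on all 16 arrays and were tested, while miR-124, miR-214 and miR-217 were well above background on 0 arrays and miR-138 on 1. From progenitors to BMMC, 4 of the 5 rose, beside 21.2% of all miRNAs that passed with BMMC higher, and their median was 0.35 against -0.30 over all tested. MiR-26a rose by 0.93 ± 0.08 (log2 difference ± SE; adjusted p = 1.6e-07 in limma) and miR-26b by 0.69 ± 0.08. Let-7b rose by 0.35 and let-7c by 0.22, while let-7a differed by -0.08 and did not pass. Without scaling their median was 2.35 against 1.27 over all tested, and 5 of the 5 passed as higher. After normexp it was 0.16 against -1.34, and only 2 of the 5 passed as higher. The 5 belong only to the miR-26 and let-7 families, so they are not separate observations. Let-7a turned positive under each of the other scalings, normexp and both deposited value sources. Under the main scaling miR-101a was higher in BMMC, as were 4 of the 5, and miR-101b lower, though the pair was picked for opposite directions here.

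Among the mast cell groups, 0 of the 5 passed in limma in MMC against BMMC (median -0.18 against 0.01 over all tested), with 1 at an unadjusted p under 0.05. In IgE_BMMC against BMMC 0 passed, and 0 at an unadjusted p under 0.05 (median 0.10 against 0.006, or 0.084 against 0.01 without the patch). In MMC against IgE_BMMC, miR-26a (-0.23), miR-26b (-0.31) and let-7c (-0.33) were lower in MMC on the log2 scale, beside 13.8% of all miRNAs that passed as lower. Without the patch miR-26a no longer passed (-0.21, adjusted p = 0.0523 in limma). With the 75th percentile of all probes and in the authors' value table, 0 of the 5 passed in limma, with 0 and 1 at an unadjusted p under 0.05. Without scaling the direction was opposite, with a median of 0.80 against 0.92 over all tested.

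The marker lists used here held no mast cell miRNA, so the labels were checked only against miRNAs listed for other cells. The stem cell and endothelial miRNAs miR-126-3p and miR-196b were well above background on 3 and 4 progenitor arrays and on 0 of the 12 mast cell arrays, and the erythroid miR-451 on 4 and 0. The calls of the other erythroid miRNAs differed: miR-486 was well above background on 0 progenitor, 4 BMMC, 4 MMC and 0 IgE_BMMC arrays, and miR-144 on none. Such calls were made before scaling, and BMMC arrays were 2.01 brighter than progenitor arrays by the main scale factor (log2). Whether brightness shaped the calls was not tested. Scaled miR-486 was not higher in BMMC than in progenitors (-0.39 on the log2 scale, adjusted p = 0.133 in limma). Its group means, 3.56 to 4.11, lay at or near the floor. Of the 3 miRNAs listed as myeloid, miR-223 is the granulocyte and monocyte one, while miR-142-3p and miR-142-5p are shared across blood cells. The summed scaled level of all 3 was 19745 to 22492 in progenitors and 7242 to 8628 in BMMC. It was 10146 to 11261 in MMC and 10045 to 13042 in IgE_BMMC, or 10687 to 13086 in IgE_BMMC without the patch. In limma with the main scaling, miR-223 fell by -4.11 (log2) from progenitors to BMMC, miR-142-3p by -1.08 and miR-142-5p by -0.74. From BMMC to MMC they moved apart, with miR-142-3p higher by 0.52 (adjusted p = 0.000312 in limma), miR-223 lower by -0.85 (adjusted p = 0.00666) and miR-142-5p differing by 0.04. Of the lymphoid pair, miR-181a was well above background on all 16 arrays and miR-150 on 0 progenitor, 4 BMMC, 1 MMC and 3 IgE_BMMC arrays. The scaled level of miR-150 ran in another order, with the highest group mean, 4.53, among progenitor arrays and 4.35 among BMMC arrays. That difference did not pass (-0.18 on the log2 scale, adjusted p = 0.625 in limma). The 3 stromal miRNAs on the array were at background on all 16 samples. The part of other cells in the progenitor cultures in the miR-101a and miR-101b differences was not tested.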

How the data were processed

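Mouse miRNAs were measured on 16 one-colour Agilent arrays, 4 per group, grouped by the labels. Per the file headers, the authors used Agilent Feature Extraction 9.5.1.1 to read the spots, and they deposited signals that are background-subtracted intensity values with no scaling between arrays. The authors' deposited value table holds log2 values with column medians of -0.98 to 0.82. Against the deposited total signal they differed for the members only by a constant per array and per entry, so the scale is log2 and the direction is known, while the labels do not state the centring; the table was an alternative only. Spots of a probe were averaged without controls and marked outliers, scaled as described, floored at 11.8 and log2-transformed, with the brightest probe taken for each miRNA. A probe was well above background when over 0.5 of its spots were, by the software's call. The 217 miRNAs that were so on 3 arrays of a group were fitted in limma 3.58.1 under R 4.3.3, with 1 coefficient per group (12 residual and 0.934 prior degrees of freedom) and Benjamini-Hochberg adjustment at 0.05. The fit was tested on simulated data.

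The members and the lists were chosen with earlier results of these data known. The text names the members, the listed miRNAs, and for each member the 5 miRNAs with the highest correlation; the sister pairs named were chosen after their values were seen. The number of arrays limits the precision. Alternatives were the scaling, background correction, source of values, probe, floor, filter, slide and replicate blocks and each array left out, plus, after the data were seen, the second-brightest probe and the blank spots left out.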

Additional observations from a re-analysis of the deposited data

Results flagged for a closer look

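In 20 sets of 4 arrays (the 4 probes and the difference between the members, in 4 groups), 3 had 1 array far from the other 3 by Dixon's test at the 95% level, where chance gives about 1 in 20. The miR-101b probe A_54_P2594 read 6.52 (log2 intensity) on IgE_BMMC replicate 3, against 7.14 to 7.24 on the other 3 arrays. MiR-101b minus miR-101a was -2.08 on the same array, against -0.89 to -0.81. With the blank spots left out these became 7.44 and -1.08. The miR-101b probe A_54_P2593 read 7.08 on progenitor replicate 4, against 7.27 to 7.29 on the others, and no blank spots were found on that array.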

How the results depend on the processing

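All values here are log2 differences, and none of the mast cell comparisons of the members was called in the main setting. BMMC against progenitor was counted as moved in settings of scaling, background correction or source of values. MiR-101a went from 0.72 to 2.26 with the 75th percentile of all probes, 1.29 with quantile normalization and 2.72 without scaling. It was 0.27 with normexp and 1.70 in the authors' value table. MiR-101b went from -0.83 to -0.23 with quantile normalization. Its sign turned to 0.72 with the 75th percentile of all probes, 1.18 without scaling and 0.10 in the authors' table. The shift of miR-101b relative to miR-101a kept its direction in these settings, though those that change only an array's scale factor cannot alter it.

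MMC against BMMC turned sign for miR-101a with the 75th percentile of all probes (-0.35), quantile normalization (-0.087), no scaling (-0.99, called) and the authors' table (-0.12), and with normexp for miR-101b (0.13) and for the difference between the members (0.047). Without scaling miR-101b was called too, at -1.04. IgE_BMMC against BMMC turned sign for miR-101a with the 75th percentile of all probes (-0.077), it turned without scaling too (-1.89, called), and normexp called it (0.28). For miR-101b it turned with normexp (0.38, called), the authors' table (0.070), the deposited total signal (0.10), the mean of all probes (0.076), the second-brightest probe (0.21) and the blank spots left out (0.17), and without scaling it was called at -2.09. The difference between the members turned with normexp (0.095), the second-brightest probe (0.11) and the blank spots left out (0.046).

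MMC against IgE_BMMC turned for miR-101a without scaling (0.90, called), where miR-101b was called at 1.05 as well. For miR-101b it turned with the 75th percentile of all probes (-0.12), quantile normalization (-0.28), normexp (-0.25, called), the authors' table (-0.24), the deposited total signal (-0.14), the mean of all probes (-0.11), the second-brightest probe (-0.25, called) and the blank spots left out (-0.21, called). The difference between the members turned with quantile normalization (-0.091), normexp (-0.049), the mean of all probes (-0.00056), the second-brightest probe (-0.15) and the blank spots left out (-0.098). The last setting differs from the main one only by the blank spots; the cause of the other changes was not tested.

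Leaving out each array in turn gave, for miR-101a, miR-101b and their difference, 0.60 to 0.78, -0.87 to -0.79 and -1.65 to -1.39 in BMMC against progenitor, -0.040 to 0.13, -0.072 to 0.014 and -0.21 to 0.053 in MMC against BMMC, 0.014 to 0.26, -0.12 to 0.12 and -0.36 to 0.10 in IgE_BMMC against BMMC, and -0.19 to 0.0055, -0.15 to 0.092 and -0.15 to 0.27 in MMC against IgE_BMMC. Calls over all miRNAs ran from 128 to 200 around 144 in BMMC against progenitor, from 10 to 153 around 43 in MMC against BMMC, from 26 to 185 around 53 in IgE_BMMC against BMMC, and from 33 to 152 around 56 in MMC against IgE_BMMC. The highest counts came with normexp in the first 2 and without scaling in the last 2. The share of calls that were higher also varied with the scaling or background correction. It ran from 12.5% to 85.7% around 31.9% in BMMC against progenitor, and from 0% to 96.7% around 81.4% in MMC against BMMC. It ran from 0.541% to 97.6% around 71.7% in IgE_BMMC against BMMC, and from 11.4% to 99.3% around 57.1% in MMC against IgE_BMMC.

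The labels do not say whether replicate numbers pair the samples. Over 24 same-numbered pairs of arrays from different groups, deviations correlated at -0.41 to 0.47 (median 0.044), and 8 exceeded 0.1. Over 72 pairs with different numbers they correlated at -0.51 to 0.46 (median -0.021), and 18 exceeded 0.1. These spreads are too wide to decide whether the numbers pair the samples. With a replicate block the values were those of the main fit (miR-101a 0.72 and miR-101b -0.83 in BMMC against progenitor) and no call of the members changed, with adjusted p = 0.541 for miR-101a and 0.973 for miR-101b in IgE_BMMC against BMMC in limma. The replicate block gave 138, 41, 46 and 49 calls in the 4 comparisons. Spots of 1 probe within an array had a median coefficient of variation of 4.39% (miR-101a) and 6.30% (miR-101b).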
